A study of Mus musculus with 2 samples.

Results

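Intermediate monocytes were taken as cells that carried Ccr2 transcripts, the mark of classical monocytes, together with Ace, Treml4 or Cd300e transcripts, which mark non-classical monocytes. A cell was a member when it held at least 2 unique molecular identifiers (UMIs) of Ccr2 and at least 2 UMIs of Ace, Treml4 and Cd300e together. It also had to lie in a monocyte gate, with at least 1 UMI of Csf1r, at least 5 of Lyz2, and S100a8 plus S100a9 under 5% of its UMIs. The gate further required fewer than 10 UMIs of C1qa, C1qb and C1qc, fewer than 5 of the alveolar macrophage genes Marco, Krt79, Plet1, Atp6v0d2 and Fabp1, and fewer than 4 of the dendritic cell genes Flt3, Zbtb46, Xcr1, Clec9a, Cd209a, Fscn1 and Ccl22. These limits selected 655 of 16995 kept cells, 194 of 8662 in the saline library and 461 of 8333 in the nanoparticle (NP) library. Members were thus chosen by the UMI counts of these genes, whose levels are given as description only.

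The cells came from lungs of female BALB/cJ mice aged 12 weeks that carried 4T1 tumors, a mouse model of metastatic triple-negative breast cancer, after inoculation of 100000 tumor cells. Both groups bore tumors, and they differed in what was given intravenously every 3 days from day 1, saline or PLG polymer nanoparticles that carried no drug. Lungs were taken on day 14, and the labels give 1 pool of 4 mice per treatment, so that each treatment is represented by 1 single-cell library. With 1 library per treatment there is no test between saline and NP, and every interval below is a 95% interval that covers counting error only and not the spread between mice.

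Monocytes leave the bone marrow as classical cells, which in mice express Ly6C and the chemokine receptor CCR2 and enter inflamed tissue. Part of them convert in the circulation into non-classical monocytes, which patrol the vessel wall, depend on the nuclear receptor Nr4a1 and express CX3CR1, CD43 (Spn) and the integrin LFA-1 (Itgal). Intermediate monocytes hold features of both and are known for high levels of MHC class II, with which a cell presents antigen to CD4+ T cells.

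The saline members held 2650315 UMIs and the NP members 7057899. Median depth was 13880.5 UMIs per saline member and 15217 per NP member, with medians of 3433.5 and 3541 detected genes. The deposited barcodes overlapped little, since 21 kept barcodes occurred in both libraries and 2 saline members and 1 NP member had such a barcode. Members were compared with the cells of the same monocyte gate most like them, classical cells with at least 2 UMIs of Ccr2 and none of the other 3 genes (427 saline, 589 NP), and non-classical cells with no Ccr2 and at least 2 UMIs of the other 3 genes (27 saline, 222 NP). Levels are given as CPM, the UMIs of a gene summed over the cells of a gate in a library and scaled to 1000000 UMIs of those cells.

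The marker genes of the limits were unevenly spread over the members. Ccr2 reached 1227 CPM in saline members and 1010 CPM in NP members, against 1750 and 1719 CPM in classical cells, and ranged from 2 to 53 UMIs per saline member and from 2 to 63 per NP member. Ace, which encodes angiotensin-converting enzyme, was detected in 85.6% of saline and 83.3% of NP members. Treml4, a receptor of the TREM family, was detected in 76.3% and 87.0%, and Cd300e, an activating receptor of monocytes, in 25.3% and 22.1%. Most members thus carried more than one of the 3 genes: Ace together with Treml4 or Cd300e was found in 128 saline members (66.0%) and 330 NP members (71.6%), and Ace alone in 38 (19.6%) and 54 (11.7%).

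**Figure D1:**
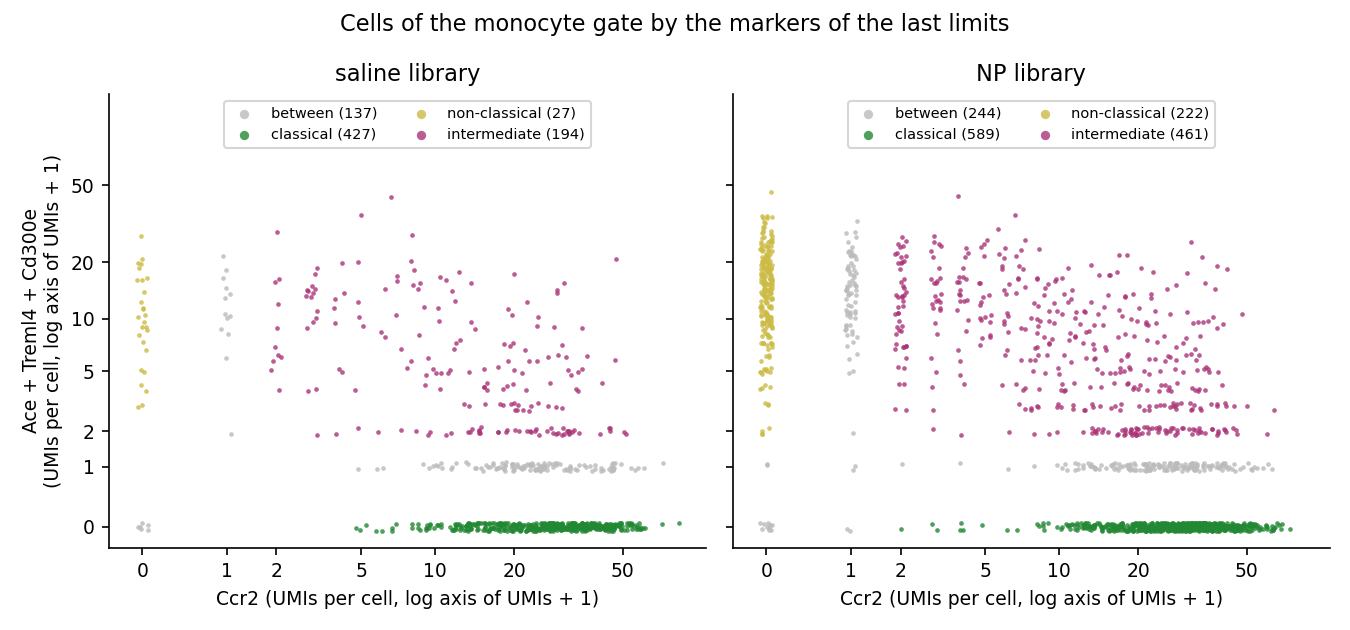
Cells of the monocyte gate by UMIs of Ccr2 (horizontal) and of Ace, Treml4 and Cd300e together (vertical), both on log axes of UMIs + 1 with small random shifts, in the saline library (left) and the NP library (right). Each point is a cell, purple points are the 194 saline and 461 NP intermediate monocytes, green points are classical, ochre points non-classical and grey points cells in between.

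The limits cut through a continuous distribution. Cells with exactly 2 UMIs of the 3 non-classical genes made up 52 saline members (26.8%) and 78 NP members (16.9%), and those just inside this limit had 327 CPM of Ly6c2 and 42.7 CPM of Spn in saline. The 118 saline cells just outside it, with 1 such UMI, had 437 CPM of Ly6c2 and 33.1 CPM of Spn. In the NP library the 78 cells just inside had 764 CPM of Ly6c2, and the 157 just outside had 1016 CPM. At the other limit, the 11 saline and 49 NP members with exactly 2 UMIs of Ccr2 had 338 and 350 CPM of Spn, and the 13 and 71 cells with 1 UMI of Ccr2 had 447 and 399 CPM.

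Genes that the limits did not use placed the members between the other monocytes. Ly6c2, which encodes the Ly6C antigen of classical monocytes, was at 575 CPM in classical cells, 185 CPM in members and 0 in non-classical cells of the saline library, and at 1179, 499 and 57.6 CPM in the NP library. Spn ran the other way, with 23.5, 128 and 572 CPM in the saline library and 23.6, 132 and 472 CPM in the NP library. Cx3cr1, the fractalkine receptor, followed the same order, with 94.4, 251 and 373 CPM in saline and 84.9, 254 and 397 CPM in NP. Both libraries therefore gave the order classical, intermediate, non-classical for these 3 genes. Itgal (199, 441 and 799 CPM in saline), Nr4a1 (532, 775 and 1453 CPM) and Fcgr4, a receptor for IgG (59.0, 235 and 977 CPM), also had higher levels from gate to gate towards non-classical cells, as did the adhesion receptor Adgre4 (17.2, 185 and 497 CPM). The gates were cut from expression, so this order is a description and was not tested.

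**Figure D2:**
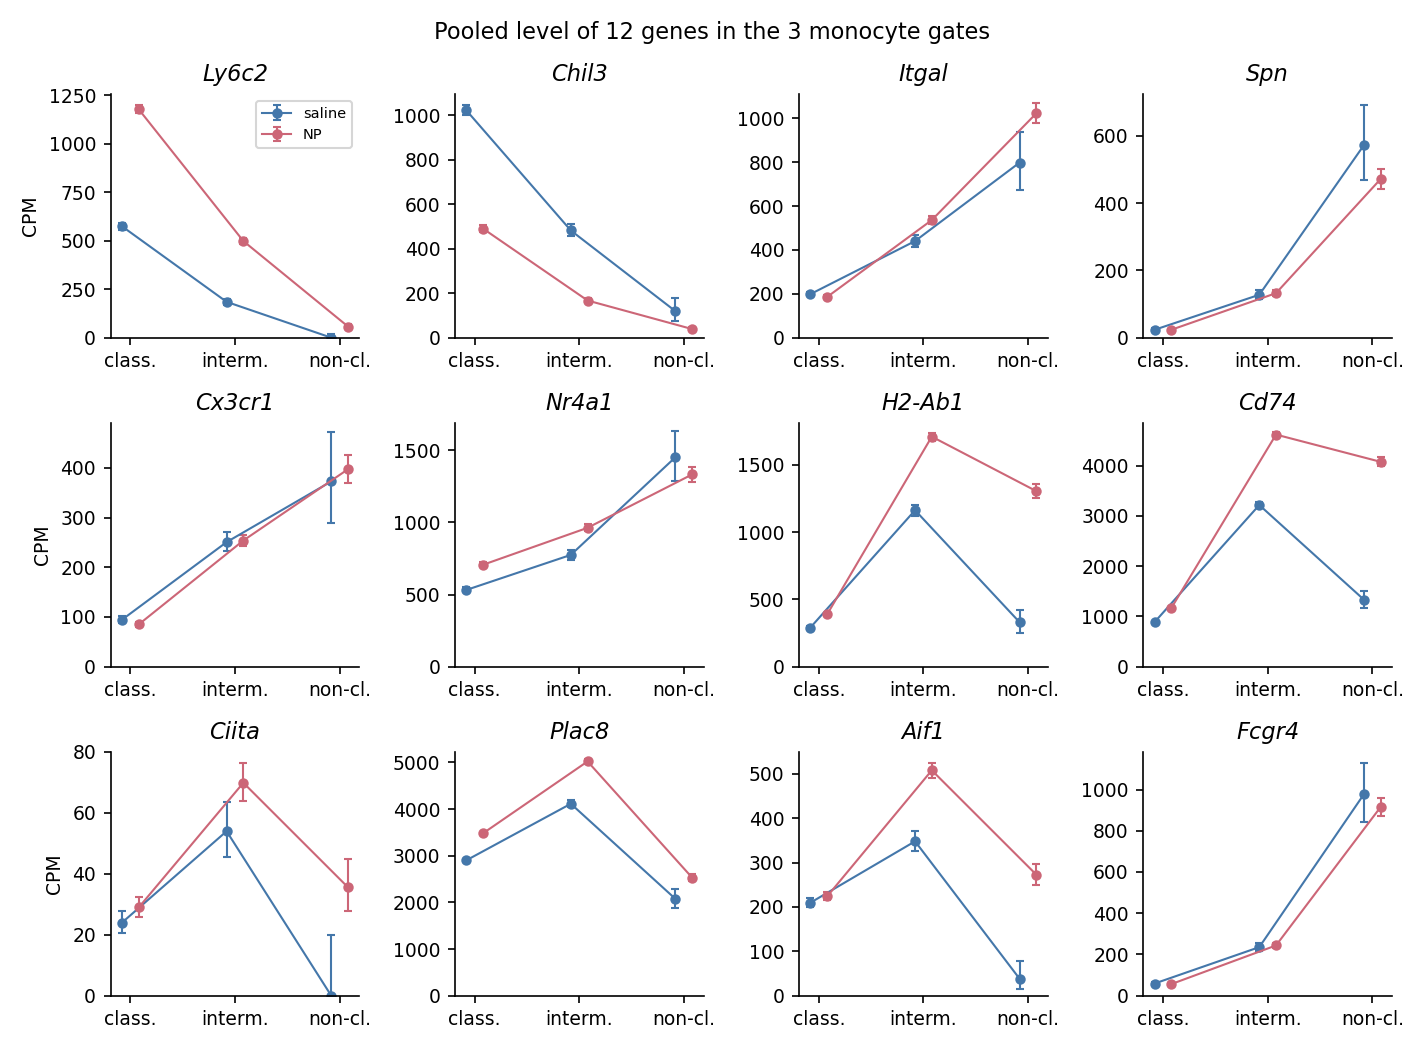
Pooled levels of genes in classical, intermediate and non-classical cells of the saline and the NP library, in CPM with exact Poisson 95% intervals for counting error. Spn and Cx3cr1 lie between the other gates in both libraries, whereas H2-Ab1 is highest in intermediate monocytes, at 1163 CPM in saline and 1710 CPM in NP.

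Of 8494 genes with at least 50 UMIs in the members of both libraries together, 3416 (40.2%) lay between the classical and the non-classical level in both libraries, 338 (3.98%) lay above both and 638 (7.51%) below both. Only 2 genes were above both by 2-fold or more in both libraries, and 0 were below both by that much. Among the 8 genes farthest above both were Ciita and H2-DMb1 of class II presentation. The saline non-classical levels in this ranking rest on 27 cells with 185193 UMIs, so low values there come from few UMIs. Ciita, the master regulator of class II transcription, was at 24, 54.0 and 0 CPM in classical, intermediate and non-classical cells of the saline library and at 28.9, 69.9 and 35.6 CPM in the NP library. H2-DMb1, a subunit of the molecule that loads peptides onto class II, was at 81.4, 148 and 16.2 CPM in saline and at 74.0, 202 and 120 CPM in NP. Aif1, a cytoskeletal protein of macrophages, reached 348 CPM in saline members against 210 and 37.8 CPM, and Plac8, an abundant gene of Ly6C-high monocytes, reached 4114 CPM against 2900 and 2074 CPM. The other 4 were Spon1, Egfl7, Avpi1 and Timp2, at 31.6 to 57.4 CPM in members. Egfl7 is an endothelial gene, and its value is set beside endothelial transcripts further on. The 8 genes farthest below both were low in members (Pttg1, Tnni2, Slc27a4, Pkp3, Mon1b, Tubgcp5 and Gse1) except for Pygl, a glycogen phosphorylase, with 144, 103 and 140 CPM in saline.

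H2-Ab1, the beta chain of the class II molecule I-A (chr17:34257689-34269419, GRCm38), was one of the markers named for these cells outside the limits. It was at 291, 1163 and 329 CPM in classical, intermediate and non-classical cells of the saline library and at 389, 1710 and 1305 CPM in the NP library, highest in members in both. The shares of cells with an H2-Ab1 UMI in saline were 21.3% in classical cells, 97 of 194 in members and 33.3% in non-classical cells. In neutrophils, which should lack class II, 3.11% of 3371 saline cells and 8.05% of 1976 NP cells had an H2-Ab1 UMI at median depths of 6496 and 5902 UMIs. Expression was far from uniform, since the median saline member had 0.5 UMIs and the highest 154. H2-Eb1 departed from this order in the NP library, where non-classical cells had 1567 CPM and members 1434 CPM. Ms4a4c, the other marker outside the limits, was lower in members than in classical cells in both libraries (309 against 408 CPM in saline, 538 against 594 CPM in NP).

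The share of intermediate monocytes was higher in the NP library. They made up 2.24% of kept cells in saline (194 of 8662, exact binomial interval 1.94 to 2.57%) and 5.53% in NP (461 of 8333, 5.05 to 6.04%), a ratio of 2.47 (2.08 to 2.94). The whole monocyte gate was also larger, with 9.06% of kept cells in saline and 18.2% in NP. Within that gate, the saline library had 785 cells, of which 24.7% were members (21.7 to 27.9%), and the NP library had 1516, of which 30.4% were members (28.1 to 32.8%). This ratio was 1.23 (1.04 to 1.46). The other gates moved unequally. Classical cells were 54.4% of the monocyte gate in saline and 38.9% in NP, and non-classical cells 3.44% and 14.6%, a ratio of 4.26.

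A cell with more UMIs passes the limits more easily. With 1 UMI of each marker asked for in place of 2, 325 of 785 saline and 691 of 1516 NP cells of the monocyte gate qualified, a log2 ratio of 0.14 (-0.05 to 0.33). When each cell of the monocyte gate was thinned to 3000 UMIs and the same 1 UMI of each was asked for, 158 of 783 saline cells (20.2%) and 356 of 1506 NP cells (23.6%) qualified, and the ratio of 1.17 (log2 0.23) had an interval from 0.969 to 1.42. Before thinning, the median cell of the monocyte gate had 15222 UMIs in saline and 14956 in NP. B cells were taken as kept cells with at least 5 UMIs of Cd79a, Cd79b and Ms4a1 together and no Csf1r. They should lack both markers, and 0 of 501 saline and 0 of 637 NP cells passed both marker limits. Because cells with a Csf1r UMI were left out beforehand, these counts cannot measure how often monocyte RNA occurs in B cells. Single markers were found in some B cells, with a Ccr2 UMI in 2.99% and 2.20% and an Ace UMI in 1.80% and 5.02%, at median depths of 4533 and 4521 UMIs.

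Expression in members was compared between NP and saline as the log2 ratio of CPM, with a count below 3 UMIs set to 3. At least 2-fold higher levels in NP were found for 233 of 8494 genes (2.74%) and at least 2-fold lower levels for 51 (0.6%), and the median gene had a log2 ratio of -0.04. In classical cells 1.08% of genes were 2-fold higher and 0.53% lower, and in non-classical cells 5.77% and 3.14%, the latter against only 185193 saline UMIs. A gene counted as past 2-fold in either direction carries no claim of significance.

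**Figure D3:**
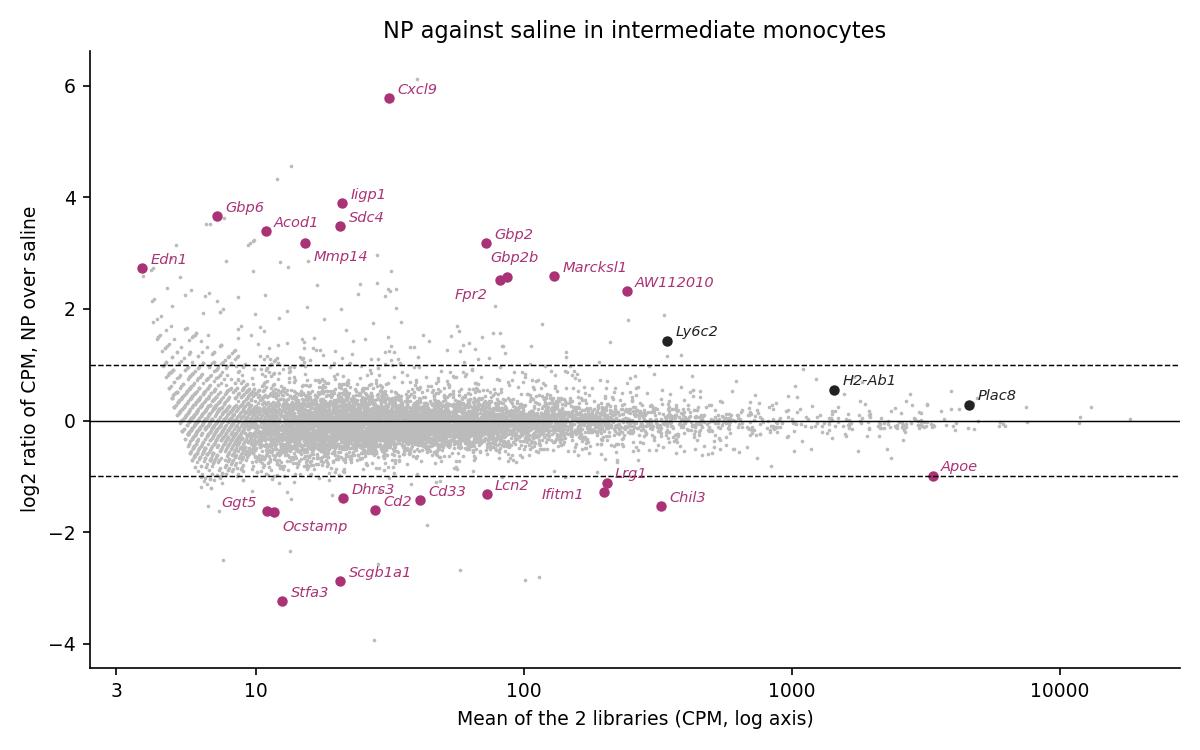
Log2 ratio of CPM, NP over saline, in intermediate monocytes (vertical) against the mean level of both libraries in CPM (horizontal, log axis) for 8494 genes. Dashed lines mark 2-fold, purple points the 12 highest and 12 lowest genes by the bound nearest to 0, and black points are Ly6c2, H2-Ab1 and Plac8.

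Of the 12 genes with the highest ratios, 5 were in the list of interferon-gamma response genes described further on, namely Gbp2, Gbp2b, Gbp6, Iigp1 and Cxcl9. Gbp2, a guanylate-binding protein that attacks vacuoles of intracellular pathogens (chr3:142620602-142638008), had 38 UMIs in saline members and 920 in NP members, or 14.3 and 130 CPM, with a log2 ratio of 3.18 (2.72 to 3.69). It was detected in 16.5% of saline and 57.5% of NP members. Its neighbor Gbp2b (chr3:142594847-142619179) went from 24.9 to 148 CPM, a log2 ratio of 2.57 (2.21 to 2.95). Members of this family resemble each other in sequence, so that reads can be shared between them and single-gene values are uncertain. Gbp6 had 0 UMIs in saline and 101 in NP members, a log2 ratio of at least 3.66 against the floor of 3 UMIs. Iigp1, an immunity-related GTPase, had 7 and 277 UMIs, a log2 ratio of 3.89 (2.83 to 5.22).

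Cxcl9, a chemokine that draws T cells through CXCR3, had 2 UMIs in saline members and 436 in NP members, and its log2 ratio was 5.77 with the saline count set to the floor (interval 4.49 to 9.41). It came from few cells, 1.03% of saline and 9.33% of NP members, and the top NP cell held 12.6% of its UMIs. The other 7 were outside the list. Acod1, which makes itaconate, had 5 and 140 UMIs, and the formyl peptide receptor Fpr2 had 64 and 977, a log2 ratio of 2.52 (2.15 to 2.91). In B cells a UMI of Fpr2 was seen in 4.79% of saline and 3.30% of NP cells, and a UMI of Gbp2 in 6.99% and 9.58%. Neutrophils, defined further on, had an Fpr2 UMI in 63.0% of saline and 64.7% of NP cells, at 236 and 281 CPM. AW112010 went from 80.4 to 402 CPM with a log2 ratio of 2.32 (2.12 to 2.53), and Marcksl1, an actin-binding protein, from 37.0 to 223 CPM with 2.59 (2.29 to 2.90). Sdc4, a cell-surface proteoglycan, had 9 and 267 UMIs. The matrix metalloproteinase Mmp14 had 8 and 194 UMIs in members, with log2 ratios of 3.19 (2.18 to 4.42) in members and 0.20 in classical cells, and the difference between the gates was not tested. Edn1, the vasoconstrictor endothelin-1, had 0 and 53 UMIs, of which 8 were left without the members that held endothelial transcripts, with a log2 ratio of 0.08 against the floor.

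Promoter sequence is shown for Gbp2, Gbp2b and Fpr2 of the 12 highest genes and for Gbp5 of the interferon-gamma list, as examples chosen because their promoters hold letters of the short DNA elements through which interferon signaling acts. Each runs from 250 bases before to 50 bases after the transcript start in RefSeq on GRCm38.p6, in lower case. Capitals mark matches to TTCNNNGAA, the gamma-activated site (GAS), or to the core of the interferon-stimulated response element (ISRE), taken as GAAA, any 2 bases and GAAA, both searched on both strands. For Gbp2 (chr3:142620413-142620712, plus strand), Gbp2b (chr3:142594597-142594896, plus) and Gbp5 (chr3:142496684-142496983, plus) they read as follows.

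Gbp2: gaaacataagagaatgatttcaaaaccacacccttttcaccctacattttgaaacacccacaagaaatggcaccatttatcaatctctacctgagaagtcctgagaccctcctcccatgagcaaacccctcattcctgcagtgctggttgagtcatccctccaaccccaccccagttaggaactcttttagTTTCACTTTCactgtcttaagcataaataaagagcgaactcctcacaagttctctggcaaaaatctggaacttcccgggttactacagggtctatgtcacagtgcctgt
Gbp2b: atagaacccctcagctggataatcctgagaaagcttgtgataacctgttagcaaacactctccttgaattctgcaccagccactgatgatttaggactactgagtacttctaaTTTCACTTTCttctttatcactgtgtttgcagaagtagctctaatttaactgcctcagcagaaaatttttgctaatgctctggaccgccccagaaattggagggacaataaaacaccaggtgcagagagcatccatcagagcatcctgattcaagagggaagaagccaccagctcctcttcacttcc
Gbp5: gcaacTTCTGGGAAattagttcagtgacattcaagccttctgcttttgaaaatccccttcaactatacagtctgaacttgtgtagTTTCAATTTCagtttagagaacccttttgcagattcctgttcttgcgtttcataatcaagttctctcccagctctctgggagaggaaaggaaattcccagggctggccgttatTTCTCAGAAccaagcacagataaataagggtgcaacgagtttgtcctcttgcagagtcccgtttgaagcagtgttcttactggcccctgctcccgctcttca

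Gbp2 and Gbp2b each held 1 ISRE core, in both as TTTCACTTTC on the printed strand, and Gbp5 held 1 ISRE core and 2 GAS matches. Fpr2 (chr17:17887574-17887873, plus) held 1 GAS match, TTCTGGGAA, and no ISRE core.

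Fpr2: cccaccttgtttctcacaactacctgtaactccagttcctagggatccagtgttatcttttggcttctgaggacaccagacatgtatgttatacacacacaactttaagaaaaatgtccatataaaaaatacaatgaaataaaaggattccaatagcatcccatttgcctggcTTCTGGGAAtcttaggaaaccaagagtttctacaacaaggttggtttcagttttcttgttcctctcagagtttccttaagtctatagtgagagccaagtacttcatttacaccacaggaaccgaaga

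Among all 27025 genes with a promoter in the table, 9.55% had a GAS match and 3.99% an ISRE core. In the interferon-gamma list described next, 24 of the measured genes had a promoter, of which 11 (45.8%) held a GAS match and 11 (45.8%) an ISRE core. Of the 12 genes with the highest ratios, 10 had a promoter, with a GAS match in 1 and an ISRE core in 3. Cxcl9, Marcksl1, AW112010, Acod1, Mmp14 and Sdc4 held neither set of letters in this window, and Edn1 held an ISRE core. A match is a description of the letters and not a bound site.

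The list of interferon-gamma response genes had 34 genes in the table, of which 31 had at least 50 UMIs in members. NP was higher for 30 of these 31, and at least 2-fold higher for 22, against 2.74% of all genes, with a median log2 ratio of 1.52 against -0.04 for all genes. The summed level went from 1215 to 2281 CPM. Further guanylate-binding proteins were among them, with Gbp5 at 10.2 and 51.9 CPM (log2 ratio 2.35, 1.78 to 2.97), Gbp3 at 34.3 and 90.4 CPM (1.40) and Gbp7 at 34.3 and 81.3 CPM (1.24). The immunity-related GTPases Igtp (13.2 and 53.3 CPM, 2.01) and Ifi47 (30.2 and 126 CPM, 2.06) were also higher. Cd274, which encodes PD-L1, the ligand of the T-cell checkpoint receptor PD-1, was at 27.5 and 78.9 CPM with a log2 ratio of 1.52 (1.16 to 1.89). Irf1, a transcription factor of this response, was at 99.6 and 184 CPM (0.88). Socs1, a feedback inhibitor of interferon signaling, had 8 and 85 UMIs (2.00), and Socs3 was the single gene of the list that was lower in NP (-0.73). The minimum of 50 UMIs, here and in the other lists, counted both libraries together, so genes such as Socs1 passed it through NP alone. The lists were also written with earlier results of these data known, and their counts are description only.

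The receptor of interferon-gamma itself ran the other way. Ifngr1 was at 906 CPM in saline and 571 CPM in NP members, a log2 ratio of -0.66, and Ifngr2 had a ratio of -0.26. Ifngr1 was also lower in NP in classical (690 and 464 CPM) and non-classical cells (1156 and 575 CPM). The median of the interferon-gamma list was 1.32 in classical and 1.13 in non-classical cells. In the latter it rested on 19 genes, the whole list had 239 saline UMIs, and the medians of the lower and upper bounds of these 19 genes were 0.07 and 3.46.

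**Figure D4:**
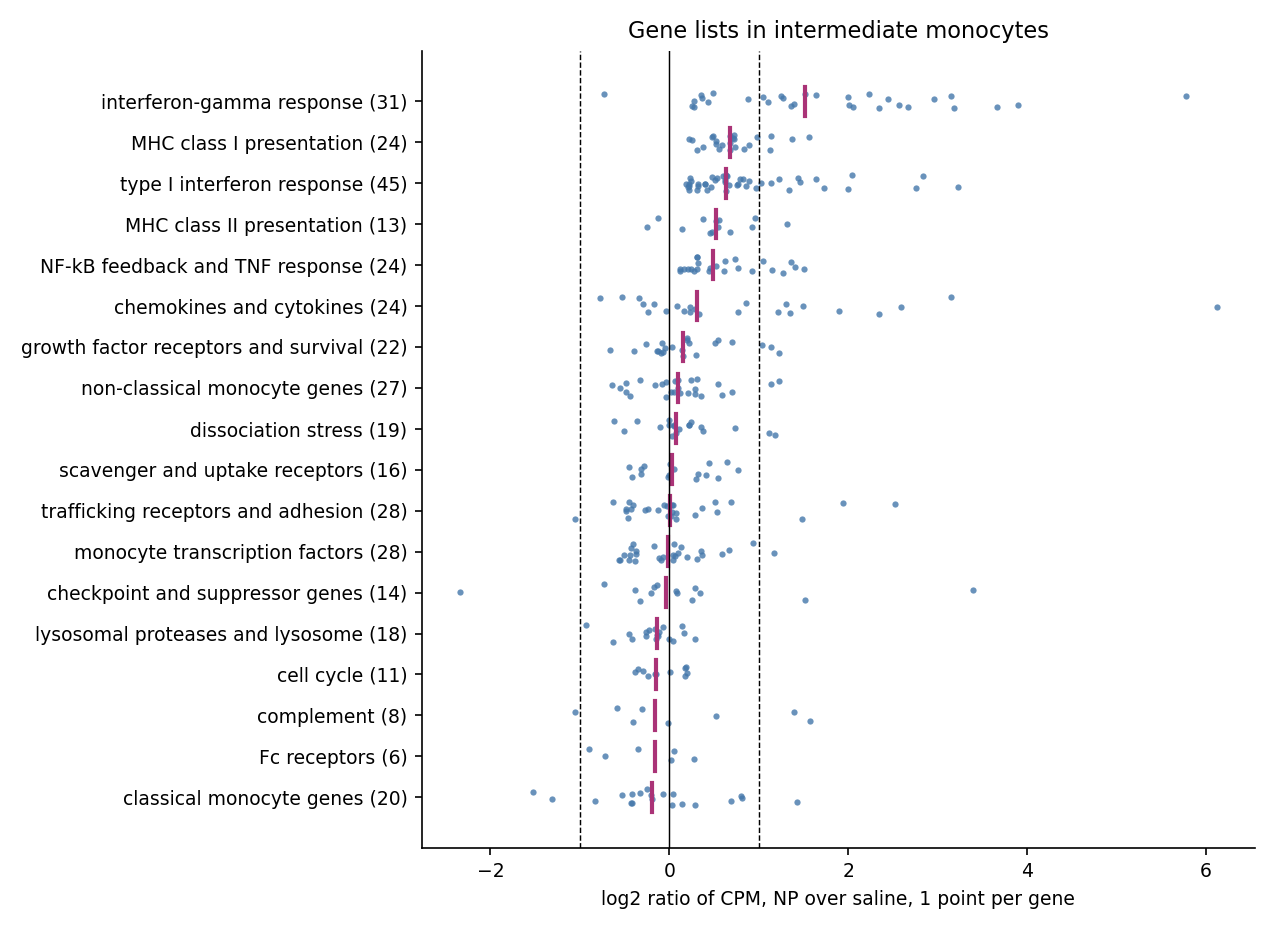
Log2 ratios, NP over saline, of single genes (points) and their medians (bars) in the gene lists for intermediate monocytes, on genes with at least 50 UMIs. Among these 18 lists, which leave out the markers of other cell types, the interferon-gamma list has the highest median, 1.52, and the lists of type I interferon, MHC class I, MHC class II and NF-κB genes have medians from 0.49 to 0.68.

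Type I interferon genes were higher in NP as well. All 45 measured genes of this list had a ratio above 0, 13 of them at least 2-fold, and the median was 0.64. Isg15, a ubiquitin-like protein, was at 54.0 and 179 CPM (log2 ratio 1.73), Rsad2, the antiviral enzyme viperin, had a ratio of 2.04, and Ifit3 had 5 and 125 UMIs (3.23). The most abundant members of the list differed less, with Ifi27l2a at 1164 and 1659 CPM (0.51) and Ly6e at 808 and 1246 CPM (0.63). Across all genes tested in members 44.4% were higher in NP at any size and 2.74% at least 2-fold. At any size the share was 42.4% in classical and 48% in non-classical cells.

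MHC class I presentation shared this direction. All 24 measured genes were higher in NP, 4 of them 2-fold or more, with a median of 0.68. Over all genes in members 44.4% were higher in NP and 2.74% at least 2-fold. The heavy chain H2-K1 was at 923 and 1538 CPM (0.74), H2-D1 at 4217 and 5213 CPM (0.31) and the light chain B2m at 2309 and 3215 CPM (0.48). H2 class I genes are near-identical in part of their sequence, and their single values are therefore uncertain. The peptide transporter Tap1 was at 87.9 and 163 CPM (0.89), and the immunoproteasome subunits Psmb8 and Psmb9 had ratios of 0.71 and 0.84. Nlrc5, the regulator of class I transcription, had a ratio of 1.12. The median of this list was 0.46 in classical and 0.47 in non-classical cells.

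MHC class II presentation had a median of 0.52, with 11 of 13 measured genes higher in NP. The costimulatory receptor Cd40 (22.3 and 55.3 CPM, 1.31) was the 1 gene at least 2-fold higher. The shares over all genes in members were 44.4% higher and 2.74% at least 2-fold. With at least 3 UMIs of each marker the list median was 0.28. In classical cells the list had a median of 0.31, and in non-classical cells 1.13. In the latter 10 of 11 measured genes were higher and 6 of them 2-fold, beside 48% and 5.77% of all genes there. H2-Ab1 was at 1163 and 1710 CPM (log2 ratio 0.56, 0.50 to 0.61), H2-Aa, its alpha-chain partner, at 1402 and 2252 CPM (0.68), H2-Eb1 at 755 and 1434 CPM (0.93, 0.86 to 1.00) and the invariant chain Cd74 at 3218 and 4620 CPM (0.52). Ifi30 (-0.25) and the protease Ctss (-0.13) were the genes of this list with lower levels in NP. More NP members carried the transcripts, since H2-Ab1 was detected in 97 of 194 saline members and in 75.9% of NP members, and the median member had 0.5 and 8 UMIs. The 4 genes H2-Aa, H2-Ab1, H2-Eb1 and Cd74 together gave a median of 5.16 per 10000 UMIs in saline members, with quartiles of 0 and 68.4, and 38.9 in NP members, with quartiles of 4.53 and 172. The quartile ranges of the libraries overlapped widely.

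Members were divided into 3 ranges by the marker share, the UMIs of Ace, Treml4 and Cd300e over these plus Ccr2. The share uses the same counts as the limits, and the ranges were chosen after the data had been seen. Values over the ranges are therefore description only. The share also had a Spearman correlation with the UMIs of a member of -0.62 in saline and -0.44 in NP. Shares under 0.2, nearest to classical cells, held 82 saline (42.3%) and 156 NP members (33.8%), shares from 0.2 to 0.5 held 51 (26.3%) and 126 (27.3%), and shares of 0.5 and over held 61 (31.4%) and 179 (38.8%). The median share was 0.25 in saline and 0.353 in NP members. Ly6c2 was lower and Spn higher from range to range in both libraries, in saline from 281 to 123 to 32.0 CPM for Ly6c2 and from 39.5 to 118 to 363 CPM for Spn.

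H2-Ab1 was at 985, 1712 and 808 CPM over these ranges in saline and at 1195, 2009 and 2045 CPM in NP. The saline level thus peaked in the middle range, whereas the NP level stayed as high in the range nearest to non-classical cells. The log2 ratios of H2-Ab1 were 0.28, 0.23 and 1.34 (1.20 to 1.49 in the last range), and those of Cd74 were 0.31, 0.11 and 1.21. The class II list had medians of 0.42, 0.11 and 1.21, and in the last range 12 of its 13 genes were higher in NP, 9 of them 2-fold, and 2 of the 13 had a saline count under the floor of 3 UMIs. Of all 8494 genes in that range, which held only 531085 saline UMIs, 44.2% were higher in NP at any size and 4.38% at least 2-fold, and the median was -0.07. The median depth of the last range was 7854 UMIs in saline and 12698 in NP, and its part in this difference was not tested. At the Ccr2 limit the values turned within 1 UMI. The 11 saline and 49 NP members with 2 UMIs of Ccr2 had 81.1 and 1844 CPM of H2-Ab1, whereas the 13 and 71 cells just outside, with 1 UMI, had 1266 and 1164 CPM.

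The interferon-gamma list was at least 2-fold higher at its median in each range. It had medians of 1.48, 1.58 and 1.14, and 6, 8 and 6 of its 31 genes had a saline count under the floor of 3 UMIs. Gbp2 had ratios of 3.28, 3.29 and 2.76, with 11.9, 14.1 and 20.7 CPM in saline and 116, 138 and 140 CPM in NP. Other genes of the list varied along the ranges, with ratios of 2.79, 3.02 and 1.71 for Gbp2b. NP levels were 58.2, 120 and 12.7 CPM for Cxcl9 and 91.2, 28.4 and 20.6 CPM for Cxcl10. The Cxcl10 levels came from 246, 59 and 47 UMIs. A single NP cell held a large part of these, as given with the chemokines below. The order of Cxcl10 over the ranges thus rested largely on that cell. Across single members, the class II genes and 17 guanylate-binding and immunity-related GTPase genes had a Spearman correlation of 0.15 in 194 saline cells and -0.02 in 461 NP cells, a description over cells that share a library.

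**Figure D5:**
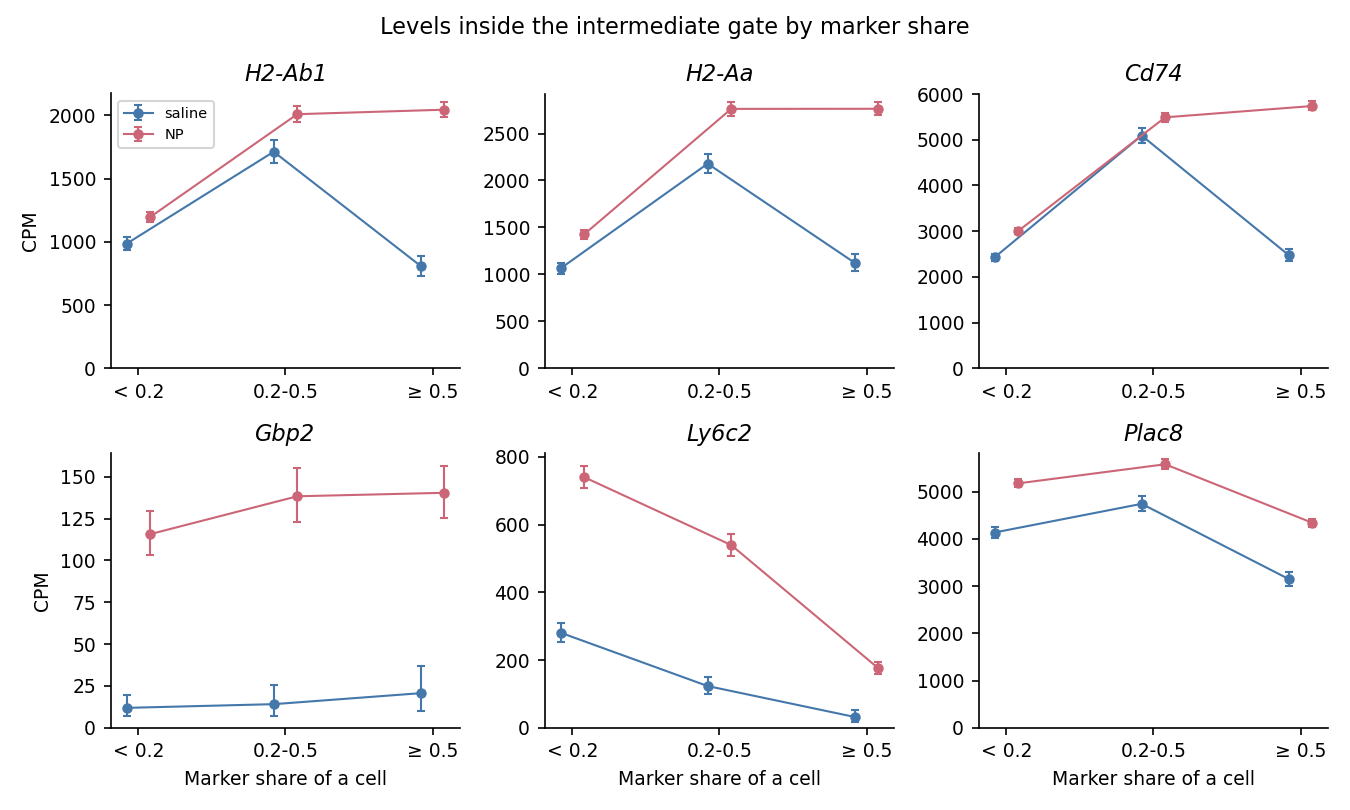
Pooled levels in CPM, with exact Poisson 95% intervals, over 3 ranges of the marker share of intermediate monocytes in the saline and the NP library. H2-Ab1 in the range of 0.5 and over is at 808 CPM in saline and 2045 CPM in NP, while Gbp2 is higher in NP in every range.

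Genes induced through NF-κB, the transcription factor of inflammatory signaling, were higher in NP for all 24 measured members, 6 of them 2-fold, with a median of 0.49. Among all genes 44.4% were higher in NP and 2.74% at least 2-fold. Sod2, the mitochondrial superoxide dismutase, was at 115 and 304 CPM (1.41), and the feedback inhibitors Nfkbia and Tnfaip3 were at 212 and 471 CPM (1.15) and at 33.2 and 85.2 CPM (1.36). Tnf itself had a ratio of 0.31 with an interval from -0.61 to 1.33, so that a difference was not detectable at this depth. The list had medians of 0.25 in classical and 0.85 in non-classical cells.

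Chemokines and cytokines were mixed, with 17 of 24 measured genes higher and 7 lower, 9 of the former 2-fold. Of all genes 44.4% were higher and 2.74% at least 2-fold. Cxcl2, which draws neutrophils, was at 141 and 525 CPM (1.90). The macrophage inflammatory proteins Ccl3 and Ccl4 had ratios of 1.22 and 0.76, and Cxcl16, a transmembrane chemokine, had 1.31. Il1rn, the antagonist of the interleukin-1 receptor, was at 10.9 and 55.7 CPM (2.35), whereas Il1b was at 2202 and 2471 CPM (0.17). Lower in NP were Ccl2, the ligand of CCR2 (-0.78), Ccl9 (-0.53), Ccl6 (-0.29) and Tgfb1 (-0.17). Single cells weighed heavily on part of the list. One NP cell held 42% of the UMIs of Cxcl10 (17 in saline, 352 in NP members), another 46% of Cxcl1 (0 and 71) and another 26% of Ccl5 (3 and 556), and each of the 3 was detected in under 10% of the members of either library. In NP the shares were 5.64% for Cxcl10, 2.39% for Cxcl1 and 9.54% for Ccl5.

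Classical monocyte genes did not move together. Of 20 measured genes 8 were higher and 12 lower in NP, beside 44.4% of all genes higher, with a list median of -0.20. This median was 0.029 with at least 3 UMIs of each marker and -0.029 when standardised over the ranges of marker share. Ly6c2 was at 185 and 499 CPM (1.43, 1.29 to 1.57), the one gene of the list that was 2-fold higher, and it was also higher in classical cells, with a ratio of 1.04. Ms4a4c (0.80), the receptor Clec4e (0.81) and Plac8 (0.29) were higher in NP, and fibronectin (Fn1, -0.43) and Mmp8 (-0.83) were lower. The chitinase-like protein Chil3 (chr3:106147554-106167564) was at 482 and 167 CPM, a ratio of -1.53 (-1.64 to -1.41), and at -1.06 in classical cells. Along the ranges of marker share Ly6c2 had ratios of 1.40, 2.13 and 2.46, whereas Chil3 and Fn1 were not lower in the last range. Chil3 had ratios of -1.30, -1.65 and 0.04 (-0.50 to 0.61 in the last), and Fn1 had -0.32, -0.04 and 2.59, the last from 8 saline and 207 NP UMIs. The list had medians of -0.05, 0.01 and 0.48.

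Of 27 non-classical genes 17 were higher and 10 lower in NP, beside 44.4% of all genes higher, with a list median of 0.09. The sign of this median depended on the setting. It was 0.34 with at least 1 UMI of each marker and -0.002 with at least 3. With each cell weighted equally it was -0.06, and standardised over the ranges of marker share -0.16. Over all members Spn had a ratio of 0.05 and Cx3cr1 of 0.02. Within the ranges of marker share, whose makeup differed between the libraries, Spn was at -0.14, -0.43 and -0.34 and Cx3cr1 at 0.17, -0.42 and -0.15. The list had medians of 0.05, 0.14 and -0.27 over the ranges, and in the last of them 6 of the 27 genes were higher and 21 lower, beside 55.8% of all genes lower in that range. Nr4a1 was at 0.31 and the transcription factor Cebpb at 0.36. The genes past 2-fold were Bcl2a1a (89.4 and 196 CPM, 1.13) and Bcl2a1b (85.7 and 200 CPM, 1.22), near-identical survival genes whose reads cannot be assigned with certainty. The lipid carrier Fabp4 (-0.64) and the integrin Itgax (-0.48) were lower.

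Transcription factors were split evenly, with 14 of 28 higher and 14 lower and a median of -0.02, beside 44.4% of all genes higher. Id2, an inhibitor of basic helix-loop-helix factors, was the gene past 2-fold, at 237 and 532 CPM (1.17). The Krüppel-like factors were lower in NP, Klf2 at 2094 and 1426 CPM (-0.55), Klf4 at -0.51 and Klf6 at -0.45, and so was Cebpd (-0.56). Irf8, a factor of monocyte development, was at 199 and 256 CPM (0.37).

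Surface receptors likewise showed no common direction, beside 44.4% of all genes higher in NP. Of 6 Fc receptor genes 3 were higher and 3 lower, with the inhibitory Fcgr2b at 331 and 202 CPM (-0.71), Fcgrt, the neonatal Fc receptor, at -0.90, and the activating Fcgr4 at 0.05 and Fcgr1 at 0.27 (0.06 to 0.49). Among scavenger and pattern receptors 9 of 16 were higher, and Tlr2, which senses bacterial lipoproteins, had a ratio of 0.77. Genes of adhesion and trafficking were split 14 to 14, with the integrin Itgam at -0.46 and Fpr1 at 1.94. Of 14 checkpoint and suppressive genes 7 were higher and 7 lower. Spp1, which encodes osteopontin, had 59 and 31 UMIs (-2.34), and 1 saline cell held 27% of them.

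Of 18 lysosomal genes 4 were higher and 14 lower in NP, with a median of -0.14, beside 44.4% higher and a median of -0.04 over all genes. The lower ones included the protease Lgmn (-0.93), and the higher ones Ctsc (0.29). In the complement list 3 genes were higher and 5 lower, with complement factor B (Cfb) at 40.8 and 121 CPM (1.57) and C3 at 178 and 255 CPM (0.52). Genes of growth and survival were higher for 13 of 22, with a median of 0.15. Stress genes of tissue dissociation were higher for 13 of 19, with a median of 0.07, Fos at -0.00 and Hspa1b at 1.18. Cell cycle genes were split 5 to 6 (median -0.15).

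The lowest ratios belonged in part to genes of other lung cells. Scgb1a1, the secretory protein of airway club cells, was at 36.2 and 4.96 CPM in members (-2.87, -3.47 to -2.30), and the neutrophil gene Stfa3 had 60 and 17 UMIs (-3.23). In barcodes with fewer than 50 UMIs, which hold free RNA, Scgb1a1 was at 4429 CPM in saline and 352 CPM in NP, and Stfa3 at 811 and 282 CPM. Ifitm1 (281 and 115 CPM in members, -1.29), Lcn2 (103 and 41.5 CPM, -1.32) and Lrg1 (278 and 129 CPM, -1.11) were also higher in saline free RNA, at 7041 and 2909 CPM, 3172 and 2025 CPM and 1120 and 725 CPM. The part of free RNA in these ratios was not tested. Apoe, the apolipoprotein of lipid-laden macrophages, was the most abundant of the lowest genes, at 4447 and 2248 CPM (-0.98, -1.02 to -0.95), with 1244 and 1533 CPM in free RNA, and its ratio was -0.93 in classical and -0.82 in non-classical cells. Chil3 differed little in free RNA (396 and 363 CPM), as did the adhesion receptor Cd2 (51.5 and 52.0 CPM), whose ratio in members was -1.61 (41.9 and 13.7 CPM). Cd33, an inhibitory receptor of myeloid cells, was at 59.6 and 22.1 CPM (-1.43), below its 194 and 125 CPM in free RNA. Ggt5 (-1.62) was also higher in saline free RNA, at 36.8 and 19.9 CPM. Ocstamp (-1.65) and Dhrs3 (-1.40) completed the 12.

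The 12 highest genes were also higher in NP than in saline free RNA. Gbp2 was at 18.6 and 94.3 CPM there, Gbp2b at 29.0 and 106 CPM, Cxcl9 at 1.15 and 13.1 CPM and AW112010 at 131 and 299 CPM, below their levels in NP members. Iigp1 (4.60 and 40.5 CPM in saline and NP free RNA), Fpr2 (123 and 139 CPM), Acod1 (56.3 and 102 CPM) and Edn1 (4.83 and 19.7 CPM) were in NP free RNA at or above the level of NP members, which for Acod1 was 19.8 CPM. The part of free RNA in their ratios was not tested. Neutrophils, taken as cells with at least 5% of UMIs from S100a8 and S100a9 and without Csf1r or B-cell transcripts, had a Gbp2 UMI in 21.6% of saline and 50.6% of NP cells.

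Markers of other cell types were low but present in members. Neutrophil markers summed to 1071 CPM in saline and 598 CPM in NP members, with Wfdc21 the most abundant. Of the 14 measured 12 were lower in NP, beside 44.4% of all genes higher. Tissue macrophage markers summed to 4580 and 2341 CPM, nearly all of it Apoe, dendritic cell markers to 247 and 274 CPM, with Bst2 the most abundant, and B-cell markers to 158 and 70.4 CPM, of which 1 saline cell held 65% of the Igkc UMIs. T-cell markers summed to 54.7 and 33.3 CPM, with Cd2 the most abundant, NK markers to 15.8 and 41.5 CPM, epithelial markers to 52.4 and 49.7 CPM, fibroblast and mural markers to 109 and 171 CPM, and alveolar macrophage markers to 126 and 163 CPM. Basophil and mast cell markers (29.8 and 43.1 CPM), erythroid markers (22.3 and 33.2 CPM) and platelet markers (3.02 and 5.53 CPM) were the remaining lists. Pax5 of B cells, Eomes of NK cells, Siglech of plasmacytoid dendritic cells and Fcer1a of basophils and mast cells had 0 UMIs in both libraries. Pax5 was the only 1 of 11 B-cell markers at 0. In saline and NP members, 4 and 2 of 10 NK markers and 5 and 3 of 16 dendritic cell markers were at 0. The same held for 5 and 4 of 7 basophil and mast cell markers. The other markers of these lists were detected, as were all 12 endothelial markers in both libraries. The collagen genes Col1a1, Col1a2 and Col3a1 were at 0 in saline members and detected in NP members. Summed neutrophil, tissue macrophage, B-cell and T-cell markers were thus lower in NP members. Summed endothelial, fibroblast, NK, alveolar macrophage, dendritic cell, basophil and erythroid markers were higher. Gsn, the most abundant fibroblast gene, differed little, at 99.2 CPM in saline and 104 CPM in NP members. The part of these markers in the NP and saline ratios was not tested. Members with at least 3 UMIs of 20 defining genes of other cell types numbered 69 in saline (35.6%) and 120 in NP (26.0%). Without them 125 saline and 341 NP members remained, and the log2 ratio of their shares of all kept cells was 1.5 against 1.30 for all members. The same limit left 1695 of 8662 saline and 2425 of 8333 NP kept cells, and over these the ratio was 0.93. Scrublet called 32 of 461 NP members (6.94%) doublets, and in the saline library it called 1 of 8662 kept cells, so that it did not work there.

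Ace is also a gene of lung endothelium, the lining of the vessels, so endothelial transcripts were counted separately. The 12 endothelial markers summed to 177 CPM in saline and 310 CPM in NP members, with Egfl7 the most abundant in saline and Cldn5 in NP. A stricter set of 9 endothelial genes summed to 118 CPM in saline and 234 CPM in NP members, against 15.0 and 27.7 CPM in classical cells. Members with at least 3 such UMIs were 6 in saline (3.09%) and 38 in NP (8.24%), and among members with Ace alone they were 3 of 38 (7.89%) and 16 of 54 (29.6%). In those left after removal, 188 saline and 423 NP members, Egfl7 was at 2.36 and 2.81 CPM, against 33.2 and 34.4 CPM in all members, and the log2 ratio of Edn1 had a lower bound of -0.57. Gbp2 (3.10), Cxcl9 (5.80), Plac8 (0.30), H2-Ab1 (0.55) and Apoe (-0.96) kept log2 ratios close to those of all members. The 7 UMIs of Iigp1 in saline members were all in the cells removed.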

How the data were processed

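The authors deposited 1 raw 10x Genomics count matrix per library, with UMI counts for 32285 genes in 1778347 saline and 1757924 NP barcodes with a UMI (91168129 and 90081747 UMIs). Per the labels and the submitters' processing notes, reads were handled with bcl2fastq and Cell Ranger 6.0 on mm10, with no correction for free RNA stated. A barcode was kept as a cell when it had between 500 and 5000 genes and less than 7.5% of UMIs from mitochondrial genes, which left 8662 and 8333 cells at medians of 6474.5 and 6008 UMIs. No clustering was used, and doublets were left in.

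The members and the gene lists were chosen with earlier results of these data known. Counts were summed over the cells of a gate and library and compared as CPM ratios, with exact conditional binomial intervals for ratios, Clopper-Pearson intervals for shares and Poisson intervals for levels, all at 95% and for counting error only. Named genes were the 12 highest and 12 lowest by the interval bound nearest to 0, with at least 50 UMIs and no cell holding over 25% of the UMIs, without the genes of the limits and without ribosomal, mitochondrial and sex-linked genes, the 8 farthest above and below both other gates, and members of the gene lists. Lists held 539 genes, 533 in the table. Positions are from GENCODE M21 on GRCm38 and promoters from RefSeq. Calculations ran in Python 3.11.15 with scipy 1.17.1, pandas 2.3.3, numpy 2.4.6, Scrublet in scanpy 1.11.5 and matplotlib 3.10.9, and were tested on simulated counts. Some list genes are not reported here by name.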

Additional observations from a re-analysis of the deposited data

Results flagged for a closer look

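In members and another gate, 14 list genes had log2 ratios of opposite sign, each with an interval that excluded 0. The difference was not tested in any of them. The lists held 533 genes in the table, not all of which passed the minimum of UMIs. No share over all genes is given, and the intervals cover counting error only. Ratios in members against classical cells were 6.12 and -1.13 for the chemokine Ccl5, 3.63 and -3.86 for granzyme A (Gzma), 1.18 and -0.45 for the heat shock gene Hspa1b, -1.01 and 0.44 for G0s2, 0.26 and -0.42 for the adhesion molecule Icam1, 0.21 and -0.14 for Gngt2, and -0.19 and 0.20 for Mgst1. One NP member held 87% of the Gzma UMIs and one 26% of the Ccl5 UMIs. The Gzma ratio of classical cells also rested on few cells. In saline they had 371 UMIs of the NK markers, 210 of them Gzma, and 5 of 427 cells held 3 or more. Against non-classical cells the ratios were -0.70 and 1.39 for Wfdc21, -0.69 and at least 0.96 for Gpr183, -0.25 and 0.52 for Ifi30, 0.24 and -0.37 for Ceacam1, 0.20 and -0.28 for Tnfrsf1b, and 0.17 and -0.25 for the protease Ctsb. The immunoglobulin gene Igkc had -2.57 in members, 1.90 in classical cells and at least 1.49 in non-classical cells, with 65% of the member UMIs in 1 saline cell. Igkc and Gpr183 had 0 UMIs in saline non-classical cells, whose 27 cells limit these values.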

How the results depend on the processing

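The member share, as a log2 ratio of 1.30, was 1.5 over all kept cells when members holding 3 or more UMIs of other cell types were left out, and 0.93 when such cells were left out of the kept cells too, which removed most of them. Over the monocyte gate it was 0.30, with at least 1 UMI of each marker 0.14 there, and after thinning under that lower limit 0.23. Over 15 alternatives the range was 0.14 to 1.5. The genes at least 2-fold higher in NP, 233, were 475 at a minimum of 20 UMIs and 84 at 200, and the 51 lower ones were 161 and 17, among 10000 and 5253 genes that passed in place of 8494. The interferon-gamma median lay between 1.36 and 1.73 over 16 alternatives. The class II median was 0.75 without cells holding UMIs of other cell types and 0.66 with each cell weighted equally, but 0.28 with at least 3 UMIs of each marker, against 0.52. The classical median of -0.20 turned to 0.029 with at least 3 UMIs of each marker and was -0.029 when standardised over the ranges of marker share. The non-classical median of 0.09 was 0.34 with at least 1 UMI of each marker and -0.16 when standardised. It was -0.06 with each cell weighted equally and -0.002 with at least 3 UMIs of each marker. The causes of these shifts were not tested. The alternatives with other-cell-type or endothelial UMIs, a shared Scrublet threshold (0.2228), standardised ranges and 1 UMI of each marker over the monocyte gate were chosen after seeing the data. Single genes were run under the full set of alternatives for the 12 highest and 12 lowest only. Some other genes, such as H2-Ab1 and Plac8, were run only without cells holding endothelial UMIs. Of the values of the 12 highest and 12 lowest genes, 362 stayed within the interval of the reported value and 30 left it. None of them changed sign. Another 16 gave no value, because the gene had under the minimum of UMIs, 6 of them for Edn1, whose ratio without cells holding endothelial UMIs was 0.08 against at least 2.73. No paired analysis was possible because each treatment has 1 library.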
